A study of Oncorhynchus mykiss with 12 samples.

Results

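The comparison described here set head kidney RNA of rainbow trout (Oncorhynchus mykiss) fed triiodothyronine (T3) against that of untreated control fish. It used 8 of the 12 arrays of the series, chosen by their titles: 4 pools from T3-fed fish and 4 control pools. Each pool held the head kidneys of 2 juvenile trout. The fish came from a stock of about 50 g and were kept in 6 aquaria of 10 fish. T3 was given in the feed at 20 µg per g for 7 days, and the control label names no agent. The third group of the series received PTU and lay on another slide. In the main results its 4 arrays entered only the shared estimate of the spread, the filter on dim probes and some levels given for reference. Some alternative settings also used them for the scaling or the signal classes.

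T3 is the active thyroid hormone. It enters cells and binds nuclear thyroid hormone receptors, which sit on DNA and switch target genes on or off depending on whether hormone is bound. The head kidney of bony fish forms blood cells and holds lymphoid tissue, so it takes the place of mammalian bone marrow, and it also contains the steroid-producing interrenal cells. The series' design names immune-related trout genes as its subject.

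All values below are levels, that is the log2 of a spot's processed fluorescence minus the 75th percentile of the trout probes on the same array. A level of 0 is therefore the brightness of the probe at that percentile, and a difference of 1 is a 2-fold difference. Brightness also depends on the probe, so levels of different probes are not set against each other as amounts of RNA. Probes are named by their IDs, because 0 of the 12884 IDs matched the trout gene table. The head kidney label was for that reason not set against marker genes here. In whole-organ RNA, fewer cells of a type and less RNA per cell cannot be told apart.

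The control and T3 arrays shared slide 1 and scan 1, but the control arrays filled row 1 of the slide and the T3 arrays row 2, so feed and slide row cannot be told apart. On control replicate 2 and T3 replicate 1 the dim probes were raised. These arrays had 99.6% and 99.0% of their probes well above background, against 79.1% to 91.0% on the 6 others. Their levels spanned 6.52 and 5.86 log2 units between the 10th and 90th percentile, against 8.02 to 8.36 elsewhere. The main results below are given with and without them. Without them, 3 arrays remain in each group.

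T3 feeding moved no probe past the threshold. limma, with Benjamini-Hochberg adjustment over the 11762 probes tested, called 0 probes (0%) with all arrays, where the smallest adjusted p was 0.855. It also called 0 without both raised arrays, where the smallest adjusted p was 1.00. At an unadjusted p under 0.05 there were 637 probes (5.42%), 244 of them higher in T3 (2.07% of those tested) and 393 lower (3.34%). With both raised arrays left out there were 357 (3.04%), with 288 higher (2.45%) and 69 lower (0.587%). The share higher in T3 was thus 38.3% with both arrays and 80.7% without them. It also moved while both arrays were kept, to 53.4% in a fit of the 8 control and T3 arrays alone, 51.5% with array quality weights, 51.2% with the percentile taken over the probes detected on every array and 8.51% with median scaling.

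Of the 637 probes, 144 also had an unadjusted p under 0.05 without both arrays, which is 22.6% of the first list and 40.3% of the second. The direction was the same for all 144. Among the 244 higher probes 108 stayed on the list, and among the 393 lower probes 36 did. Both lists share 6 of their 8 control and T3 arrays. Leaving out arrays did not always shorten the list, which held 983 probes in limma without control replicate 4 alone. The cause of the shorter list without both raised arrays was not tested.

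Separation of the groups uses no model of the spread. The T3 and control ranges did not overlap for 411 of the tested probes (3.49%), with T3 higher for 148 (1.26%) and lower for 263 (2.24%). With 3 against 3 arrays, both raised ones left out, the ranges were apart for 1162 probes (9.88%), with 580 higher (4.93%) and 582 lower (4.95%). Fewer arrays make separation easier. The share of all splits of the arrays that puts a probe's groups apart is 0.0286 with all arrays. It is 0.10 without both raised arrays. The observed shares lay close to these, so the larger count does not show clearer separation without the raised arrays.

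The sizes of the differences were small for most probes. The middle 50% of the differences, T3 minus control, lay between -0.22 and 0.41 log2 units, and 90% lay between -0.76 and 1.00. Their median was 0.11, and 59.7% lay above 0. Without both raised arrays the middle 50% lay between -0.23 and 0.35 and the median was 0.016, with 51.7% above 0. The arrays' own median levels are a different measure. They averaged -2.07 in control and -1.88 in T3, with an exact permutation p of 0.371. Without both raised arrays they averaged -2.17 and -2.03, with an exact permutation p of 0.10, the smallest possible. More than 2-fold differences were found for 879 probes (7.47%), 585 with the T3 mean higher and 294 with it lower. That number was 897 (7.63%) without both raised arrays, 697 higher and 200 lower. The median standard error of a difference was 0.44 in both fits. The 95% interval lay wholly between a 2-fold lower and a 2-fold higher mean for 3091 probes (26.3%) with all arrays and for 3459 (29.4%) without both raised arrays. For the remaining probes the interval reached beyond 2-fold, so this number of pools could not bound the difference that closely.

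Pools of different feeds lay about as far apart as pools of the same feed. The median absolute difference of a probe between arrays ran from 0.44 to 0.93 log2 units over the 6 control pairs. It ran from 0.41 to 0.82 over the 6 T3 pairs and from 0.35 to 0.96 over the 16 pairs of a control and a T3 array. With both raised arrays left out, the medians of these values were 0.50 within control, 0.44 within T3 and 0.48 between feeds. The closest pair of all 8 arrays was thus a control and a T3 array.

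To follow the effect by signal, the tested probes were divided by their mean level over the 8 arrays into 5 classes of 2352 or 2353 probes. Class 1 held the dimmest, with mean levels of -8.51 to -4.33. Class 5 held the brightest, with mean levels of 0.74 to 8.46. Each array was then summarised by its median level in a class, and the 4 T3 arrays were compared with the 4 control arrays by an exact two-sided permutation test, for which the smallest possible p is 0.0286.

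In class 1 the median levels of control replicates 1 to 4 were -5.78, -4.22, -6.00 and -5.83. Those of T3 replicates 1 to 4 were -3.67, -5.79, -5.81 and -5.62. Control replicate 2 and T3 replicate 1 stood above the 6 others, and the groups overlapped. The group means were -5.46 ± 0.83 (SD, n = 4) in control and -5.22 ± 1.04 (n = 4) in T3, a difference of 0.23 with an exact permutation p of 0.514 (adjusted over the 5 classes, 0.643).

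The difference of the array medians was lower in the brighter classes. It was 0.16 in class 2 (exact permutation p 0.457), 0.088 in class 3 (0.457), -0.017 in class 4 (0.714) and -0.11 in class 5 (0.486), with adjusted p of 0.643 to 0.714. None of the 5 differences exceeded the spread between pools. Class 4, with mean levels of -1.26 to 0.74, holds the level 0 to which every array was scaled. Its array medians were thus held close together (SD 0.026 in control and 0.065 in T3). Its difference is near 0 in part by construction, and its p is no measure of an effect there. With median scaling the difference was 0.011 in class 1 and -0.24 in class 4, so the place of the sign change depends on the scaling. In class 5 the control medians were 2.40, 2.11, 2.30 and 2.34 and the T3 medians 1.87, 2.14, 2.38 and 2.30, so the groups overlapped there as well. Taken probe by probe, the median difference was 0.21, 0.23, 0.16, -0.0092 and 0.0013 from class 1 to class 5. By that measure the fall was not steady, and class 5 was not below class 4.

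Without both raised arrays the differences of the array medians kept their order over the classes, and no size was larger. They were 0.13, 0.13, 0.088, -0.00041 and -0.069 from class 1 to class 5. Probe by probe, the median differences were 0.076, 0.13, 0.054, -0.059 and -0.047. In classes 2 and 3 the 3 T3 arrays then lay above the 3 control arrays. In class 2 these arrays lay at -3.68, -3.69 and -3.67 in T3 and at -3.86, -3.80 and -3.77 in control. In class 3 they lay at -2.09, -2.10 and -2.09 in T3 and at -2.26, -2.13 and -2.15 in control. Each of these gave an exact permutation p of 0.10, the smallest that 3 against 3 arrays allow, and 0.25 after adjustment. The class 1 difference was -0.28 without T3 replicate 1 alone and 0.65 without control replicate 2 alone, so single arrays set both its sign and its size. Its difference was -0.0034 after quantile normalization and -0.85 after normexp background correction.

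**Figure D1:**
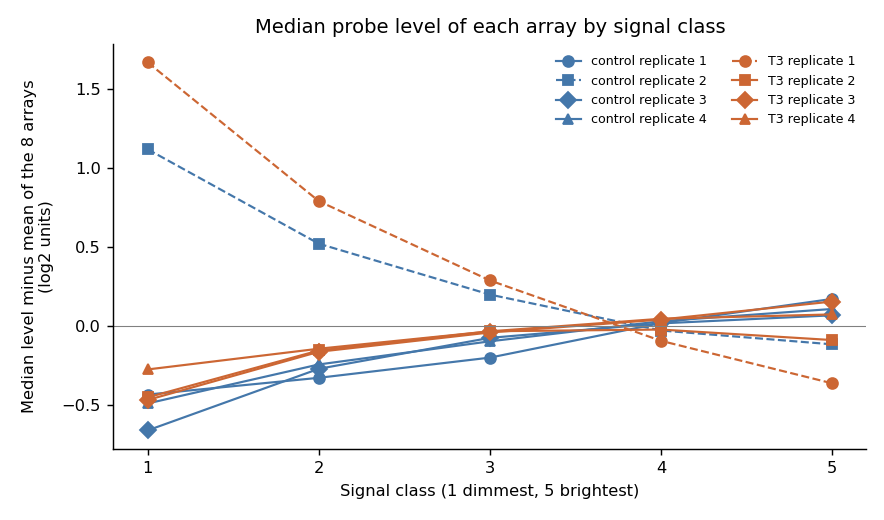
Median level of the tested probes of each array, minus the mean of the 8 arrays, in log2 units, by signal class from 1 (dimmest) to 5 (brightest). Each line is 1 array, blue for control and orange for T3, and the dashed lines are control replicate 2 and T3 replicate 1. These 2 arrays lie highest in classes 1 to 3, while the 6 others lie close together.

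Of the manufacturer's 10 E1A control probes, which read no trout transcript, the 2 dimmest had the largest T3 minus control differences. The dimmest of them stood at -3.26 on control replicate 2 and at -7.70 to -6.82 on the other controls. It stood at -2.40 on T3 replicate 1 and at -7.41 to -5.37 on the other T3 arrays. Its T3 minus control difference was 0.90 with all arrays and 0.91 without both raised arrays. The next brighter one differed by 0.49 and 0.18, and the 8 others by 0.030 to 0.21 with all arrays and by -0.12 to 0.13 without both, where 7 of the 8 lay below 0. On the dimmest of these 8, control replicate 2 lay at -3.55, within the other controls (-3.58 to -2.67). T3 replicate 1, at -2.72, was the highest T3 array there. The part of such shifts in the differences of dim trout probes was not tested.

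Control replicate 2 and T3 replicate 1 also held many of the extremes in classes 1 and 5. Of 2236 class 1 probes read on all 8 arrays, 1591 (71.2%) had their highest level on T3 replicate 1 and 340 (15.2%) on control replicate 2. Among 2333 class 5 probes, the lowest level fell on control replicate 2 for 925 (39.6%) and on T3 replicate 1 for 768 (32.9%). Their highest level fell most often on control replicate 1 (26.7%). Over all classes, T3 replicate 1 held the highest level for 32.5% of probes. No array then held the lowest level for more than 16.8%, the share of control replicate 2.

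**Figure D2:**
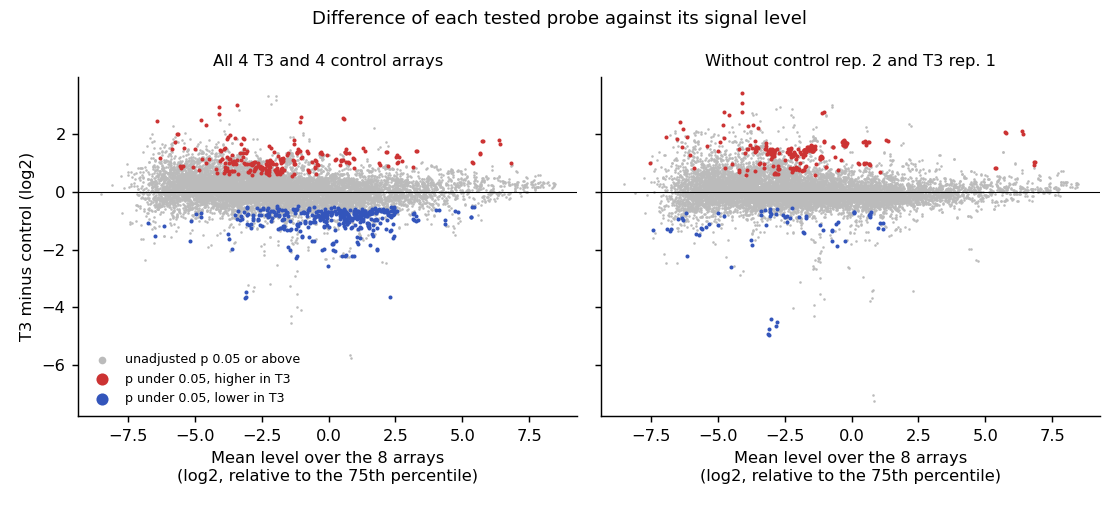
T3 minus control difference of each tested probe (log2 units) against its mean level over the 8 arrays (log2, array 75th percentile = 0), with all arrays on the left and without control replicate 2 and T3 replicate 1 on the right. Red and blue points have an unadjusted p under 0.05. Blue points gather among bright probes on the left (161 lower probes in class 5) and are few on the right (4).

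The direction of the probes with small p depended on brightness too. With all arrays, class 1 held 26 probes at an unadjusted p under 0.05 (18 higher in T3, 8 lower) and class 2 held 90 (66 higher, 24 lower). Class 3 held 146 (88 higher, 58 lower). In class 4 there were 184, of which 142 were lower, and in class 5 there were 191, of which 161 were lower. From class 1 to class 5 the counts were 1.10%, 3.83%, 6.20%, 7.82% and 8.12% of the class, against 5.42% of all tested probes. The bright classes thus supplied most of the lower probes.

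Without both raised arrays the lower probes of class 5 numbered 4 and the higher ones 12. Class 4 then held 17 lower and 61 higher probes, and class 3 held 11 lower and 116 higher. Both directions together were 0.680% of class 5, 3.32% of class 4 and 5.40% of class 3, against 3.04% of all tested probes. By separation of the groups, however, the lower probes of the bright classes still outnumbered the higher ones. The groups were apart for 76 higher and 156 lower probes in class 4 and for 41 higher and 140 lower probes in class 5. Both directions together made up 9.86% of class 4 and 7.70% of class 5, against 9.88% of all tested probes. Separation was thus no more frequent in these classes than over all probes. The share of differences above 0 was 43.7% in class 4 and 43.2% in class 5 without both raised arrays, against 49.4% and 50.1% with them. The 144 probes on both lists came from all classes, with 11, 38, 47, 35 and 13 from class 1 to class 5.

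**Figure D3:**
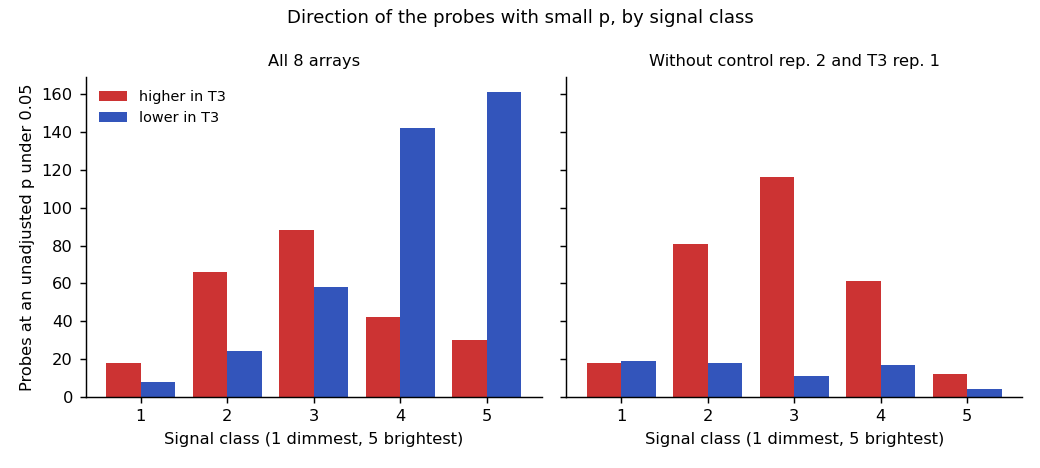
Number of probes at an unadjusted p under 0.05 from limma by signal class, red for higher and blue for lower in T3, with all 8 arrays on the left and without control replicate 2 and T3 replicate 1 on the right. Class 5 goes from 30 higher and 161 lower to 12 higher and 4 lower.

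Precision also followed brightness. The median standard error of a difference was 0.79 in class 1 and 0.35 in class 5. The 95% interval stayed within 2-fold for 4.67% of class 1 probes and 42.4% of class 5 probes, and for 54.1% of class 5 without both raised arrays. The spread among pools also differed by brightness, which was not tested. The median SD over pools in class 5 was 0.40 in T3 and 0.53 in control, and 35.2% of the probes had the larger SD in T3. The values were 0.29, 0.40 and 31.8% without both raised arrays. In class 1 the median SD was 1.25 in T3 and 0.97 in control, and 0.52 and 0.49 without both raised arrays.

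Among bright probes, 4 with nearly the same profile lay higher in T3. JC001598 lay at 6.01, 5.71, 5.04 and 5.18 on control replicates 1 to 4 and at 6.51, 8.57, 6.35 and 7.65 on T3 replicates 1 to 4. All 4 T3 pools lay above all control pools, replicates 2 and 4 by the widest margin. The means were 5.49 ± 0.45 (SD, n = 4) in control and 7.27 ± 1.04 (n = 4) in T3. This was a 3.45-fold difference, 1.79 log2 units (SE 0.46, 95% interval 0.77 to 2.80), with an adjusted p of 0.855 from limma.

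For JC000293, JC008040 and JC006735 the T3 minus control differences were 1.78, 1.67 and 1.75. For JC008040 the control pools lay at 5.95, 5.80, 5.22 and 5.37 and the T3 pools at 6.48, 8.53, 6.38 and 7.64. After each probe's own mean was removed, JC000293 departed from JC001598 by at most 0.16 log2 units on any array, JC008040 by at most 0.14 and JC006735 by at most 0.18. The 4 probes need not report separate transcripts. Some partner within 0.3 log2 units on every array was found for 99.2% of class 5 probes and for 36 of the 55 named probes (65.5%). To have a partner within that limit is thus common among bright probes. That share counts any tested probe as a partner and uses a wider limit. It does not say how rare a match like that of these 4 probes is. The 4 differences were 2.11, 2.08, 2.00 and 2.04 without both raised arrays. On the 4 PTU arrays JC001598 lay between 6.03 and 6.76 and JC008040 between 6.07 and 6.79, above every control array, while JC000293, between 5.22 and 5.86, and JC006735, between 5.30 and 5.93, overlapped the control range.

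Other probes of the upper 2 classes had larger T3 minus control differences with larger standard errors. JC005818 lay at -0.95, -1.89, 1.09 and -1.21 in control and at 1.59, 1.10, 2.72 and 1.81 in T3. The groups were apart, but control replicate 3 came within 0.1 of T3 replicate 2. Its mean difference was 2.55 (SE 0.85), a 5.84-fold difference, with an adjusted p of 0.855 from limma, and it was 2.23 without both raised arrays. Over the PTU pools its levels ran from -2.49 to 1.25.

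JC009613 lay at -2.76, -3.25, -1.42 and -1.79 in control and at -1.19, 1.81, 1.36 and -0.89 in T3. T3 replicates 2 and 3 were high and T3 replicates 1 and 4 lay just above the control range. JC003171 was high on the same 2 T3 arrays, with 1.76 and 1.26 there, -1.52 and -1.04 on the other T3 arrays and -2.98 to -1.61 in control. JC002222 was high on T3 replicates 2, 3 and 4 at 0.61, 0.39 and 0.49, while T3 replicate 1, at -1.25, lay beside control replicate 2 at -1.32. The differences of JC009613, JC003171 and JC002222 were 2.58, 2.41 and 2.02 with all arrays and 2.75, 2.72 and 2.67 without both raised arrays. After normexp background correction those of JC009613 and JC003171 were 1.69 and 1.55. The PTU pools ran from -2.57 to 2.23 for JC009613, from -2.70 to 2.16 for JC003171 and from -4.07 to 1.72 for JC002222.

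At lower signal, JC007795 had narrow groups. It lay at -2.40, -2.17, -2.17 and -1.87 in control and at -1.43, -1.28, -1.39 and -1.17 in T3. Its difference was 0.83 (SE 0.25), and 0.87 without both raised arrays. After normexp background correction it was 0.30. JC006808 lay at -2.98, -2.66, -3.02 and -2.24 in control and at -0.87, -1.54, -1.93 and -1.07 in T3, so all 4 T3 pools were above the control range. JC012880, a brighter probe of class 4, lay between -2.86 and -0.80 in control and between -0.62 and -0.25 in T3. Its T3 pools were close together. The differences of JC006808 and JC012880 were 1.37 and 1.49, and 1.23 and 1.24 without both raised arrays. After normexp they were 0.51 and 0.78, and that of JC008136, another of the higher probes, was 0.098 in place of 1.03.

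Of the probes higher in T3, the 10 with the lowest p had differences that ran from 0.83 to 1.79. The groups were apart for all 10, against 1.26% of all tested probes in this direction. For all 10 the adjusted p from limma was 0.855. They were picked for their p, so the count describes them and tests nothing. Among them, JC006808 (-2.15 to -0.94), JC007795 (-1.62 to -0.68) and JC008136 (-2.40 to -1.33) also lay above every control array on all PTU arrays. On the PTU arrays JC012880, JC006816 and JC000374 overlapped the control range. The same control arrays serve both comparisons, and PTU lay on another slide, so feed and slide cannot be told apart there.

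Of the probes lower in T3, JC004530 had the lowest p. It lay at -0.61, -0.03, 0.18 and -1.15 in control and at -1.38, -1.60, -1.93 and -2.07 in T3. All 4 T3 pools were below the control range. The difference was -1.34 (SE 0.32, 95% interval -2.03 to -0.65), and it was -1.34 without both raised arrays too. After each probe's own mean was removed, JC010972 followed it within 0.19 log2 units on every array. The difference of JC010972 was -1.12.

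JC011118, a class 5 probe, lay at 1.37, 2.65, 2.38 and 1.49 in control and at -0.53, 1.03, 0.12 and 0.85 in T3. The groups were apart, with a 3.05-fold lower mean in T3 (difference -1.61, SE 0.44). The difference was -1.08 without both raised arrays, where control replicate 2 had been the highest and T3 replicate 1 the lowest array. With each probe's own mean removed, JC004676 followed it within 0.16 log2 units. The differences of JC004676 were -1.56 and -1.09.

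JC007067 lay at 1.31, 1.44, 1.27 and 0.58 in control and at -0.08, 0.48, 0.09 and 0.29 in T3, a difference of -0.96 (SE 0.26), and -0.77 without both raised arrays. With each probe's own mean removed, JC000625 followed it within 0.17 log2 units. The differences of JC000625 were -0.92 and -0.69. Control replicate 4 was the control pool nearest to T3 for both. JC003477 lay at 0.47, 0.94, 0.00 and -0.27 in control and at -0.25, -1.92, -1.41 and -2.06 in T3. T3 replicate 1 lay within the control range, so the groups overlapped, and the difference grew from -1.70 to -1.87 without both raised arrays. JC009919 had nearly the same profile, with differences of -1.57 and -1.71.

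JC011050 and JC012793 were the last of the 10 lower probes with the lowest p, with differences of -1.04 and -1.15. The groups were apart for 8 of the 10, against 2.24% of all tested probes in this direction, and the adjusted p from limma was 0.855 for all 10. All PTU arrays also lay below every control array for JC004530, JC007067, JC000625, JC011118, JC004676 and JC011050. The margin was narrow for JC004530, with a PTU high of -1.154 and a control low of -1.148. For JC003477, JC009919, JC010972 and JC012793 the PTU arrays overlapped the control range. JC008293 and JC001851, also bright and apart, lay between -0.0025 and 1.27 over the control pools and between -1.68 and -0.09 over the T3 pools. Their differences were -1.23 and -1.16, and -0.81 and -0.72 without both raised arrays.

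**Figure D4:**
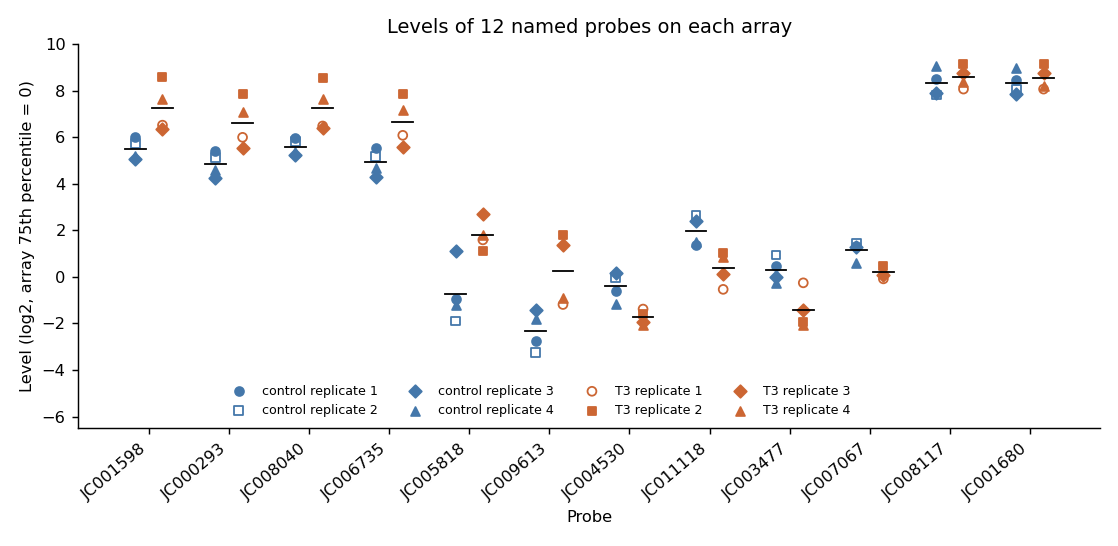
Level of 12 named probes on each array (log2, array 75th percentile = 0), blue for control and orange for T3, with a marker shape for each replicate. Open symbols are control replicate 2 and T3 replicate 1, and black bars are the means of 4 pools. The means of the first 6 probes are higher in T3 and those of the next 4 lower, and the last 2, among the brightest on the array, overlap.

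The 5 probes per direction with the lowest p in the fit without both raised arrays included 4 that were not among those above. That fit kept the PTU arrays for the spread. JC008085 lay at -2.38, -2.63 and -2.33 in control against -1.30, -1.68 and -0.92 in T3, while T3 replicate 1, at -2.44, lay within the control range. Its difference was 0.97 with all arrays and 0.30 after normexp. JC007824, JC010141 and JC002310 were class 1 probes. JC010141 was well above background on 3 control arrays and 1 T3 array, the latter being T3 replicate 1. Its level lay between -6.61 and -6.27 on the 3 remaining control arrays and between -7.87 and -7.54 on the 3 remaining T3 arrays. JC002310 lay between -5.28 and -5.09 on those control arrays and between -6.58 and -6.04 on those T3 arrays, but at -3.54 on T3 replicate 1. JC007824 had a difference of 1.07 with all arrays and of -0.82 after normexp background correction, so its direction depended on the background step.

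The 5 probes with the highest mean signal did not separate the groups. JC008117 lay at 8.50, 7.81, 7.89 and 9.07 in control and at 8.06, 9.16, 8.77 and 8.38 in T3. The pools of both groups covered about the same range. Its difference was 0.28 both with all arrays (95% interval -0.45 to 1.00) and without the raised ones, with an adjusted p of 0.988 from limma. For JC001680, JC008018, JC007083 and JC001675 the differences were 0.20, 0.23, 0.30 and 0.33, and the widest of the 5 intervals ran from -0.57 to 1.16. After quantile normalization 4 of these 5 differences lay below 0, at -0.028 for JC008117, -0.068 for JC001680, -0.074 for JC008018 and -0.018 for JC007083.

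The 20 probes with the largest absolute difference, a choice made after the values were seen, had large steps between pools of the same feed. Their differences ran from 3.05 to 5.76 log2 units in size, 16 lower and 4 higher in T3. The groups overlapped for all 20, and 4 had an unadjusted p under 0.05. The adjusted p from limma ran from 0.855 to 0.988. Of the 20, 15 were not well above background on at least 1 of the 8 arrays, and 8 were above it on only 2 T3 arrays. The sizes and the ranking of these 15 rest in part on signals that have only an upper bound. After normexp the 16 lower probes had differences of -3.65 to -1.90 and the 4 higher ones of 1.86 to 2.19.

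In 9 of them, 1 control pool and 2 T3 pools were low. JC008445, the probe with the largest difference, lay at -0.48, 5.38, 5.32 and 4.71 in control and at 4.04, 4.91, -7.92 and -9.14 in T3. It was not well above background on T3 replicates 3 and 4, while T3 replicates 1 and 2 lay near control replicates 2 to 4. Its levels over the PTU pools ran from -9.94 to 5.71. With each probe's own mean removed, JC002003 departed from JC008445 by at most 0.25 log2 units. JC008419 was low on the same pools, at -7.51 on control replicate 1, -7.72 on T3 replicate 3 and -8.95 on T3 replicate 4. It lay between 3.34 and 3.93 on the other control pools, at 3.52 on T3 replicate 2 and at -1.50 on T3 replicate 1. JC001977, JC008422, JC001980, JC002066, JC008508 and JC002128 were low on the same 3 pools. Over these 9 probes the standard error of a difference was 2.23 to 3.97, and the unadjusted p 0.174 to 0.345.

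In 6 others, 3 of the 4 T3 pools were low. JC002173 lay at -1.88, -0.90, -1.18 and -1.21 in control and at -0.85, -6.12, -6.21 and -6.71 in T3. T3 replicate 1 lay above every control pool, and the 3 other T3 pools lay far below all of them. The difference was -3.68 (SE 1.48), and -4.92 without both raised arrays, with an adjusted p of 0.855 and 1.00 from limma. It was not well above background on T3 replicate 3, and its difference was -2.15 after normexp. Levels over the PTU pools ran from -6.54 to -0.041 for JC002173 and from -7.20 to 0.0092 for JC008424. Low levels of these 2 probes were thus not confined to T3 pools. JC008638, JC002196, JC008424, JC001982 and JC008615 were low on the same 3 T3 pools, with differences of -3.65, -3.46, -3.43, -3.30 and -3.22. When both raised arrays were left out, the groups of all 6 probes were apart, with differences of -4.94 to -4.42, against 4.95% of all tested probes in this direction. The 6 were grouped for their low levels on these 3 T3 pools, so their separation largely follows from the choice and tests nothing. Each of the 6 was not well above background on at least 1 T3 array, and after normexp their differences were -2.19 to -1.97.

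JC006843 stood high in a single control pool, at 9.57 on control replicate 1 against 3.87, 3.03 and 0.04 on the other controls and -0.72 to 2.17 in T3. The 4 probes higher in T3 were JC012362, JC012357, JC005915 and JC005920. JC012362 lay between -4.65 and -2.19 in control and at 3.14, -3.62, -0.04 and -1.94 in T3. T3 replicate 1 was the highest and T3 replicate 2 was within the control range for all 4.

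**Figure D5:**
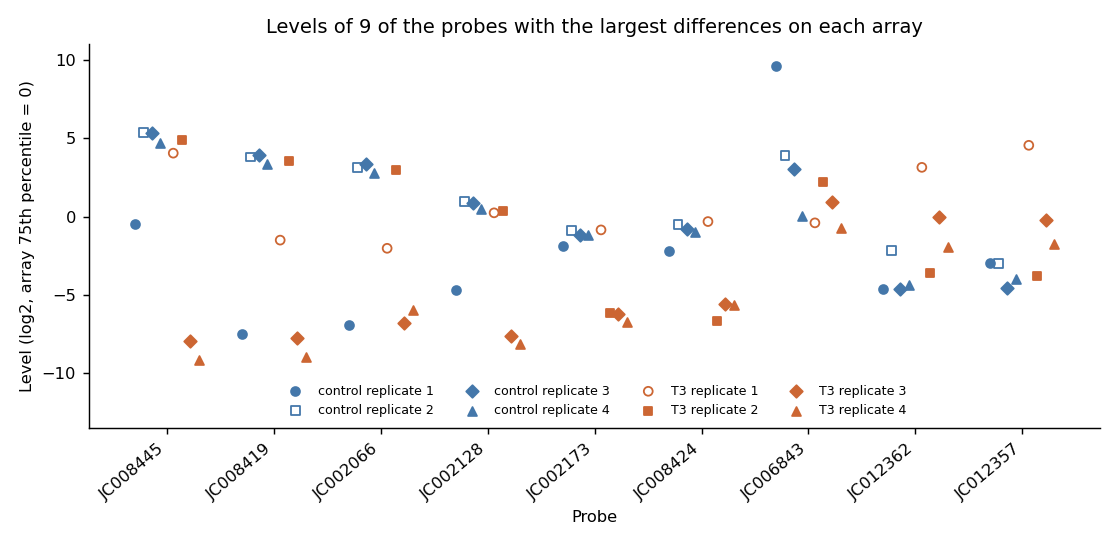
Level of 9 of the 20 probes with the largest T3 minus control difference, on each array (log2, array 75th percentile = 0), blue for control and orange for T3, a marker shape for each replicate, open symbols for control replicate 2 and T3 replicate 1. For the first 4 probes, control replicate 1 and T3 replicates 3 and 4 lie far below the other pools. For JC002173 and JC008424, T3 replicates 2 to 4 lie below all control pools.

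A wide range over the 8 arrays was not confined to the 20 probes with the largest difference. It exceeded 4 log2 units for 1396 of the 11762 tested probes, 6 for 304 and 8 for 55. Of the 55 probes with the widest range, 35 (63.6%) differed more than 2-fold between the group means, against 7.47% of all tested probes, and a wide range makes such a difference likely by construction. An unadjusted p under 0.05 in limma was found for 1 of the 55 (1.82%), against 5.42% of all.

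The arrays were also compared by detection. Of the 12884 probes, 9977 were well above background on all 8 arrays and 38 on none. 0 probes were well above background on all 4 arrays of one group and on none of the other. JC012160, chosen after its values were seen, was the only probe so marked on at least 3 arrays of one group (3 control arrays) and on no array of the other. Its control mean lay below the lowest T3 signal that counts as well above background, so no fold is given. Of the 12884 probes, 1239 were above background on more control than T3 arrays, and 443 on more T3 than control arrays. These counts use all 8 arrays. T3 replicate 3 had 79.1% of its probes well above background, against 85.6% or more on every other array. The part of that array in the counts was not tested.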

How the data were processed

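Trout head kidney RNA, labelled with Cy3 by reverse transcription from oligo(dT) per the labels' protocols, was read on 1-colour Agilent arrays. Per the file headers, Agilent Feature Extraction 10.7.3.1 made the processed signal, a background-corrected intensity that is not scaled between arrays. The authors' deposited value table holds a fraction, the processed signal over the sum of the array's trout probes, as read from its values. 0 of its columns belonged to other samples.

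From these, log2 levels were computed by subtracting each array's 75th percentile, without 536 control spots and spots marked as outliers. The saturated spot (1 over all arrays) was kept. Probes well above background on at least 3 of 4 arrays of a group were tested. limma 3.58.1 in R 4.3.3 fitted the 12 arrays in 3 groups, and T3 was compared with control by two-sided moderated tests, adjusted by the Benjamini-Hochberg method at a threshold of 0.05. The signal classes were compared by exact permutation over arrays.

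The members, lists and tests were chosen with earlier results of these data known. Named are, per direction, the 10 probes of lowest p, and the 5 in each direction with the largest difference among bright probes (classes 4 and 5) well above background on all 8 arrays with groups apart. The 5 per direction of lowest p without both raised arrays and the 5 brightest are named as well. The 20 probes with the largest difference were added after the values were seen. Alternatives covered the scaling, the background step, the filter, the arrays fitted, a replicate block and the model of the spread. Pools are separate pairs of fish, but some pools must share an aquarium. The labels do not say which, so p-values can be too small. The number of arrays limits the precision.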

Additional observations from a re-analysis of the deposited data

Results flagged for a closer look

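Of 140 groups of 4 values examined, 26 held 1 array far from the others. The rate of about 1 in 20 for unselected groups is no yardstick here. The named probes were picked for their values, and control replicate 2 and T3 replicate 1 were known beforehand to stand apart. The count describes these groups and tests nothing. An array counted as far when the step to its closest neighbour, as a share of the group's range, passed Dixon's 95% critical value. Many of these groups are not independent, since several probes share a profile.

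Among the array summaries, T3 replicate 1 had 232 spots marked as outliers, against 0 to 3 on the other T3 arrays. The width between the 10th and 90th percentiles was 6.52 log2 units on control replicate 2 and 5.86 on T3 replicate 1. The median Spearman correlation across probes with the 7 other arrays was 0.886 on control replicate 2 and 0.843 on T3 replicate 1, and 0.929 to 0.948 on the remaining arrays. The median levels of the dimmest probes stood apart on the same arrays. They were -4.22 (control replicate 2) and -3.67 (T3 replicate 1) in class 1, -3.01 and -2.74 in class 2, and -1.77 on T3 replicate 1 in class 3.

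Control replicate 1 stood apart for 9 of the probes that switched between pools, always as the lowest control. Its level was -0.48 for JC008445, -0.69 for JC002003, -7.51 for JC008419, -8.74 for JC001977 and -7.51 for JC008422. It was -8.61 for JC001980, -6.90 for JC002066, -8.57 for JC008508 and -4.71 for JC002128.

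T3 replicate 1 stood apart as the highest T3 pool for JC002173 (-0.85), JC008638 (-0.71), JC008615 (-0.73) and JC010141 (-5.84), and as the lowest for JC002222 (-1.25). Control replicate 2 stood apart as the highest control for JC012362 (-2.19) and JC005920 (-2.20). Of the manufacturer's 60 control probes, 0 had all 4 T3 arrays above all 4 control arrays. The share was 1.26% among the tested trout probes, so a count of 0 among 60 says little. The other direction is not given here.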

How the results depend on the processing

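The count of 0 calls held in all 21 alternatives run. The 637 probes at an unadjusted p under 0.05 became 357 without both raised arrays and 1033 with array quality weights. Omitting 1 array gave 285 (control replicate 3) to 983 (control replicate 4), among them 348 without control replicate 2 and 382 without T3 replicate 4. The share of these probes higher in T3 (38.3%) was 80.7% without both raised arrays and 74.8% without PTU replicate 3 as well. It was 20.2% after quantile normalization, 8.51% with median scaling, 10.3% after normexp and 51.2% with the percentile over probes above background everywhere. It was 53.4% in a fit of the 8 arrays, 34.0% with a variance trend and robust settings and 51.5% with array quality weights. Omitting 1 array gave 29.3% (control replicate 4) to 70.1% (control replicate 2).

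The median difference over all probes (0.11) was -0.0022 after quantile normalization, -0.11 with median scaling, -0.35 after normexp and 0.016 without both raised arrays, and ran from -0.056 to 0.16 with 1 array omitted, negative without T3 replicate 1. After quantile normalization, classes 1 to 3 lay at -0.0034, -0.087 and -0.14. With median scaling classes 2 and 3 lay at -0.062 and -0.14. After normexp classes 1, 2, 3 and 5 lay at -0.85, -0.59, -0.31 and 0.045. Class 4 lay at 0.051 with the percentile over probes above background everywhere, 0.031 with no filter and 0.0064 with classes set on the PTU arrays. With 1 array omitted, class 1 ran from -0.28 to 0.65, class 2 from -0.074 to 0.36, class 3 from 0.0074 to 0.17, class 4 from -0.034 to 0.012 and class 5 from -0.18 to -0.011. The smallest adjusted exact permutation p of a class in any alternative was 0.25. Probes with groups apart (411 of the 11762 tested, 3.49%) numbered 1162 (9.88%) without both raised arrays. With 1 array omitted they numbered 525 (control replicate 3) to 1113 (control replicate 4). Fewer arrays make separation easier, but each omission of 1 array leaves the same number of arrays. The cause of the range among these omissions was not tested.

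Of 1137 values of the 55 named probes under alternatives, 1131 kept their sign, though alternatives that change only the filter or the variance prior leave a difference unchanged by construction. 0 passed the threshold, with a smallest adjusted p of 0.466 from limma. The reversed ones were JC008117, JC001680, JC008018 and JC007083 after quantile normalization (-0.028, -0.068, -0.074 and -0.018), JC001680 with median scaling (-0.019) and JC007824 after normexp (-0.82). In limma with a replicate block there were 0 calls and 555 probes below an unadjusted p of 0.05, 45.05% of them higher. No label gives the replicate numbers a meaning, and the deviations of same-numbered control and T3 arrays from their group means correlated between -0.33 and 0.35. The cause of these changes was not tested.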
